A study of Danio rerio with 17 samples.

Results

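The regions described here are stretches of the zebrafish genome, merged from peaks, that held a called peak of all 8 ATAC-seq libraries of the series. Not every base of such a stretch lies under a peak of every library. ATAC-seq marks open chromatin by the insertion of a transposase into DNA that nucleosomes leave free. The deposited peaks of the 8 libraries were merged wherever they overlapped by 1 bp or more, which gave 21650 merged regions. Of these, 4171 (19.3%) held a peak of every library, and these are called shared regions. The members were thus chosen by the presence of a called peak in each library, so their strength and width describe the choice and support nothing.

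Cells carrying the sox10:GFP reporter, as a marker of cranial neural crest, were sorted from zebrafish embryos at 48 hours post fertilization. The groups are prdm3-/- mutants and their wild types (prdm3 wt), and prdm16-/- mutants and their wild types (prdm16 wt), with 2 ATAC libraries each. All 4 groups share the sox10:GFP reporter, the sort and the age. The 9 RNA samples of the 17 in the series were not used. Each library is a pool of embryos, and nothing in the labels says whether replicates came from separate crosses, so p-values measure the spread between these libraries.

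Neural crest cells leave the neural tube and form cartilage, bone, pigment cells and peripheral nerves and glia. The sox10 reporter marks the crest and also tissues such as the otic vesicle. Prdm3 and Prdm16 are zinc finger proteins of the PRDM family with ties to histone methylation. In vertebrate cells, sites that are open in every sample are often promoters of widely used genes or sites bound by CTCF, a protein that shapes chromosome loops. Sites open in some samples are more often enhancers. Whether a shared region lies at a promoter was not analysed here, because no gene annotation of danRer11, the genome build of the peaks, was at hand. For the same reason the sorted cells were not checked against marker genes, and no sequence is printed.

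The libraries differed widely in how many peaks they held. The prdm3 mutant libraries held 18266 and 15115 peaks, against 13658 and 8187 in the prdm3 wt libraries. The prdm16 mutant libraries held 10682 and 6590 peaks, against 14074 and 6777 in the prdm16 wt libraries. In each of the 4 groups, replicate 1 held more peaks than replicate 2. Read totals are unknown, so sequencing depth and the number of open sites cannot be told apart in these totals. The part of peak number in which regions are shared was not tested beyond the alternatives given below.

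The number of libraries per region had a maximum at each end. There were 5047 regions with a peak in 1 library, 2823 in 2, 2364 in 3, 2353 in 4, 2283 in 5, 1331 in 6, 1278 in 7 and 4171 in all 8. Thus a region held by 7 libraries was rarer than one held by 8. The regions of 1 library were spread unevenly, with 2657 and 422 in the prdm3 mutant libraries and 638 and 824 in the prdm3 wt libraries. The prdm16 mutant libraries had 108 and 63 such regions, and the prdm16 wt libraries 313 and 22.

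**Figure D1:**
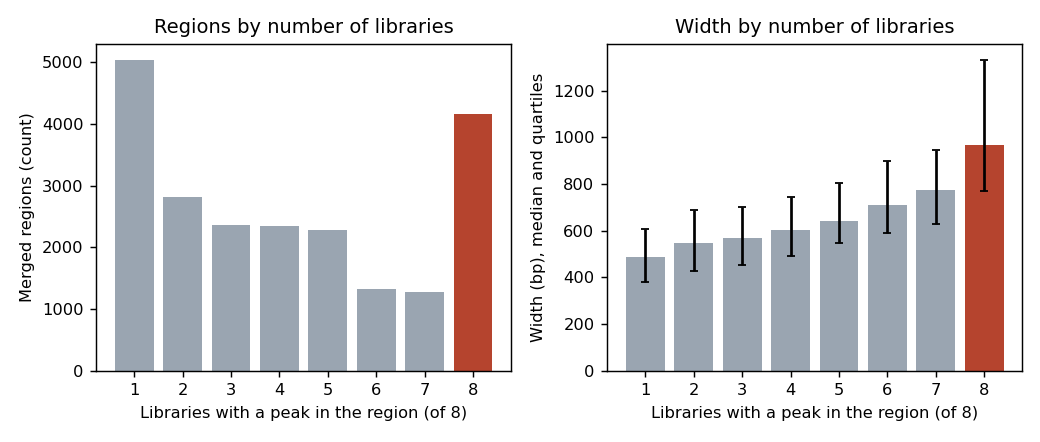
Left, the number of merged regions (count) by how many of the 8 libraries hold a peak in them; right, their width in bp as median (bars) with quartiles (lines). The 4171 regions of all 8 libraries (red) form a second maximum after the 5047 regions of 1 library, and their median width of 967 bp is the highest of the 8 classes.

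Just outside the rule stand the 1278 regions with a peak in 7 libraries, which had a median width of 775 bp. Of these, 1105 (86.5%) lacked a peak in 1 of the 3 libraries with the fewest peaks. The missing library was prdm16 mutant replicate 2 in 500, prdm3 wt replicate 2 in 358 and prdm16 wt replicate 2 in 247. It was one of the other 5 libraries in between 9 and 58 regions each. Seen from the other side, each library can be asked how many of the regions common to the other 7 it also held. The prdm3 mutant libraries held 98.7% and 99.5% of them, against 99.8% and 92.1% for the prdm3 wt libraries. The prdm16 mutant libraries held 99.4% and 89.3%, against 98.6% and 94.4% for the prdm16 wt libraries. The 3 libraries with the fewest peaks had the 3 lowest values. With the 5 other libraries alone, 8255 regions were common to all, a number obtained after the data had been seen.

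Most regions common to the 4 mutant libraries, or to the 4 wild type libraries, were shared by all 8. All 4 mutant libraries held a peak in 5221 regions, of which the shared regions are 79.9%. All 4 wild type libraries held a peak in 4866 regions, of which the shared regions are 85.7%. A set cannot have more regions in common than its shortest list has peaks, 6590 in mutants and 6777 in wild types. How far this sets the 2 shares was not tested. Both prdm3 mutant libraries held 13638 regions, and the shared regions are 30.6% of these. For both prdm3 wt libraries the number was 6616 and the share 63.04%. For both prdm16 mutant libraries it was 5582 with a share of 74.7%, and for both prdm16 wt libraries 5711 with a share of 73.03%. The prdm3 mutant pair thus had the smallest share in the shared set and also the 2 longest peak lists.

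The rule sets the number of peaks that the shared regions take up in a library, since each region holds at least 1 peak of each library. They held 4581 and 4603 peaks in the prdm3 mutant libraries, against 4598 and 4524 in the prdm3 wt libraries. The prdm16 mutant libraries had 4599 and 4679 peaks in them, against 4684 and 4628 in the prdm16 wt libraries. As a share of each library's peaks this was 25.1% and 30.5% in prdm3 mutants, and 33.7% and 55.3% in prdm3 wt. It was 43.05% and 71.0% in prdm16 mutants, and 33.3% and 68.3% in prdm16 wt. The 2 prdm3 mutant values lay below both of their wild type values, whereas those of the prdm16 set overlapped. With the number of peaks in shared regions set by the rule, these shares restate the length of each peak list.

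The signal of a peak is the authors' area under it. The shared regions held 56.02% and 64.4% of all peak signal in the prdm3 mutant libraries, against 70.9% and 85.4% in the prdm3 wt libraries. They held 77.7% and 91.6% in the prdm16 mutant libraries, against 66.3% and 90.6% in the prdm16 wt libraries. In every library this was above the share of the covered bases that the shared regions made up, which ran from 39.2% in prdm3 mutant replicate 1 to 79.7% in prdm16 mutant replicate 2. Covered length in shared regions was between 4115916 and 4964239 bp per library. Mean signal per covered base was 1.64 to 1.84 there and 0.532 to 0.898 in the library's other peaks. The peak caller's own strength measure therefore stood higher in shared regions in all 8 libraries, as a description, because strength also decides whether a peak is called.

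No test of mutant against wild type libraries passed 0.05 in these measures. The share of peaks in shared regions averaged 42.4% ± 20.5 in the 4 mutant libraries and 47.6% ± 17.2 in the 4 wild type libraries (SD), which compares list lengths and is given as a description. The share of signal, which also depends on how many other peaks a library has, averaged 72.4% ± 15.6 in mutants and 78.3% ± 11.5 in wild types (SD, two-sided exact permutation test, p = 0.543). It was lower the more peaks a library held, without exception, from 91.6% at 6590 peaks to 56.02% at 18266. Its test therefore cannot be read apart from list length. The median width of a library's peaks in shared regions averaged 750 ± 120 bp in mutants and 701 ± 87.9 bp in wild types (p = 0.571, same exact test). The regions were chosen by overlap of these same peaks, and this width ran largely with list length. The test of width cannot be read apart from either, and this also holds for all tests of width below. The smallest p that 4 against 4 libraries allow is 0.0286.

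Within the prdm3 set, 2 mutant libraries against 2 wild types gave a difference of -16.7 percentage points in peak share, -18.0 in signal share and 160 bp in median width. In all 3 measures both mutant values lay outside both wild type values. Peak share restates list length, and signal share followed it in all 8 libraries. Median width also ran largely with list length, from 860 bp in the longest list to 610 bp in the shortest. These are therefore not 3 separate results. The exact permutation p of 0.333 for signal share and for width is the smallest this design allows, so it cannot pass 0.05. With the same number of strongest peaks taken from every library, shared regions were formed anew, 3102 in number. The differences in the prdm3 set were then -1.12 percentage points in peak share, -1.95 in signal share and 192.5 bp in width. At equal list lengths the rule leaves peak share little room to differ, so its small difference is no check. Within the prdm16 set the differences were 6.24 percentage points in peak share, 6.15 in signal share and -61.5 bp in width, the last 2 with an exact permutation p of 0.667 each. With equal list lengths they were 0.296 and 0.687 percentage points and -71.0 bp. In both sets, equal list lengths leave each peak at its called width, so they do not equalize sequencing depth. The part of depth in width was not tested. The adjusted p was 0.714 for signal share and for width in each contrast (Benjamini-Hochberg over 9, peak share included). The difference between the prdm3 and prdm16 effects had an exact permutation p of 0.278 for signal share and 0.111 for width, in a design whose smallest p is 0.0556. The direction within the prdm16 set turned when a single library was left out, as given in the closing part.

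Shared regions ranged in width from 221 to 26420 bp, with a median of 967 bp (quartiles 769 and 1333 bp, 95% interval of the median 951 to 983). That interval treats regions as independent and does not cover the spread between libraries. Leaving out a library gave medians of 926 to 963 bp. The median over all merged regions was 623 bp. A region that joins peaks of 8 libraries is wider by construction than the peaks themselves. The libraries' own peaks in shared regions had median widths of 860 and 838 bp in prdm3 mutants, against 758 and 620 bp in prdm3 wt. They were 691 and 610 bp in prdm16 mutants, against 793 and 631 bp in prdm16 wt. A library's other peaks were narrower in every library, with medians from 471 to 578 bp. Peaks in shared regions were widest in the 2 libraries with the most peaks and narrowest in the 3 with the fewest.

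The widest merged regions were nearly all shared, against 19.3% of all merged regions. A merged region grows as more peaks are joined, so the merging rule ties width to the number of libraries. Of 3557 merged regions of 1000 bp or more, 1961 (55.1%) were shared. Of 565 of 2000 bp or more, 462 (81.8%) were shared, and of 103 of 5000 bp or more, 101 (98.1%). Chromosome 8 held 15 of these 101, chromosome 4 held 14 and chromosome 16 held 11. Together the shared regions covered 5681821 bp.

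The shared regions fell into a simple and a composite kind. In 3315 of them (79.5%) each library had exactly 1 peak, and these had a median width of 895 bp. The other 856 (20.5%) held more than 8 peaks, had a median width of 1747 bp and made up 41.1% of the bases in shared regions. A composite region thus held several peaks in at least 1 library.

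The 5 widest shared regions were all composite. The widest filled positions 1 to 26420 of an unplaced scaffold, a piece of assembly with no place on a chromosome. Next came chr8:34770676-34796762 (26087 bp), chr14:20091448-20114553 (23106 bp), chr12:14380465-14403154 (22690 bp) and chr16:36392887-36412702 (19816 bp). The chromosome 8 region held 9 and 6 peaks in the prdm3 mutant libraries, against 2 and 1 in the prdm3 wt libraries. It held 4 and 3 peaks in the prdm16 mutant libraries, against 6 and 3 in the prdm16 wt libraries. The region on chromosome 16 was the most fragmented, with 62 peaks in all, 8 and 10 in prdm3 mutants, 9 and 9 in prdm3 wt, 7 and 8 in prdm16 mutants and 8 and 3 in prdm16 wt. Its strength was also the most ordinary of the 5, as its strongest peak ranked at the 49.6th to 80.2nd percentile of the libraries, whereas the other 4 stood at the 97.3rd or above in every library.

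Each peak carries a −log10 p from the authors' peak caller, which ran from 2.57 to 19.5. Apart from a filter among the alternatives and the values printed for the strongest region, they were used only as percentile ranks within a library. A rank of 100 is the strongest peak, and a region takes the rank of its strongest peak. Ranks from lists of different lengths do not measure change between libraries. Many peaks tie, since each library had only between 395 and 588 distinct values.

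The strongest peaks of every library lay almost entirely in shared regions. Of the strongest 10% of peaks, between 93.6% (prdm3 mutant replicate 1) and 99.4% (prdm16 wt replicate 2) were in shared regions. Of the weakest 10%, the share was between 2.304% (prdm3 wt replicate 1) and 28.5% (prdm16 mutant replicate 2). Each 10% here is a class of 10 percentile points. Ties make the classes unequal in size, with 576 to 722 peaks in prdm16 mutant replicate 2. In the middle the libraries parted, and in the fifth of the 10 classes the share was 6.59% in prdm3 mutant replicate 1 and 71.9% in prdm16 mutant replicate 2. The prdm3 mutant libraries and prdm16 wt replicate 1, which have long peak lists, kept a low share up to the middle classes and then climbed steeply. In prdm3 wt replicate 1, also a long list, and in the 3 libraries with the fewest peaks the share climbed from the start.

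**Figure D2:**
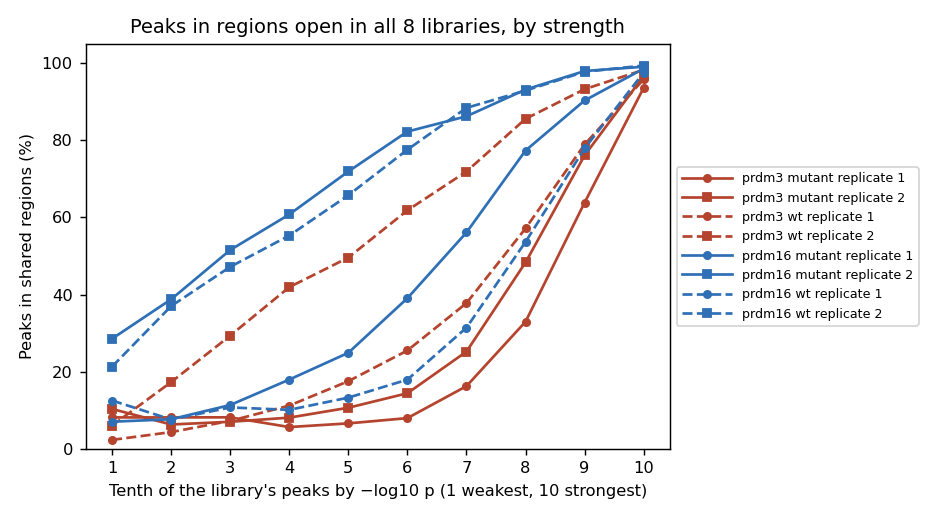
The share (%) of each library's peaks that lie in shared regions, in 10 classes of 10 percentile points of the library's peaks ranked on −log10 p. Solid lines are mutant and dashed lines wild type libraries, red the prdm3 and blue the prdm16 set, circles replicate 1 and squares replicate 2. All 8 lines meet between 93.6% and 99.4% in the strongest class, and the 3 libraries with the fewest peaks lie above the others in most classes.

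The median rank of a shared region was 86.7 and 84.3 in the prdm3 mutant libraries, against 81.8 and 71.1 in the prdm3 wt libraries. It was 77.9 and 63.1 in the prdm16 mutant libraries, against 83.0 and 64.7 in the prdm16 wt libraries. These medians follow the number of peaks, with the lowest values in the 3 shortest lists. Taken over the 8 libraries, a shared region had a median lowest rank of 49.4, a median middle rank of 78.2 and a median highest rank of 90.1. In 339 regions (8.13%) the rank was 90 or more in every library. In 375 (8.99%) it fell under 10 in at least 1 library, and 31 (0.743%) stayed under 50 in all 8. The weakest rank came from prdm16 mutant replicate 2 in 1480 regions, from prdm16 wt replicate 2 in 1079 and from prdm3 wt replicate 2 in 618. Regions held by 7 libraries, by comparison, had a median middle rank of 57.1, and regions of 1 library a median rank of 13.7.

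The order of strength among shared regions was alike but not equal in the libraries. Spearman's rho of the ranks across the 4171 regions ran from 0.51 (prdm3 mutant replicate 1 with prdm3 wt replicate 2) to 0.92 (prdm3 mutant replicates 1 and 2). The next highest values joined prdm16 wt replicate 1 to prdm3 mutant replicate 2 (0.91) and to prdm3 mutant replicate 1 (0.90). The highest values among libraries with few peaks included prdm16 mutant replicate 2 with prdm16 wt replicate 2 (0.88). The lowest values joined a library with a long list to 1 of the 3 with the fewest peaks. Among them were prdm3 wt replicate 2 with prdm16 wt replicate 1 (0.57) and prdm3 mutant replicate 1 with prdm16 mutant replicate 2 (0.60). Not every pair had this order. For prdm3 wt replicate 1, rho was 0.83 with prdm16 wt replicate 2, whose list is far shorter. It was 0.75 with prdm16 wt replicate 1, whose list is of similar length. The part of list length in rho was not tested. The points of all pairs share the same regions.

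A handful of regions led the list in every library. The strongest peak of all 8 libraries was one and the same, at positions 1 to 2309 of an unplaced scaffold. Its −log10 p was 16.6 and 17.1 in the prdm3 mutant libraries, against 18.7 and 19.5 in the prdm3 wt libraries. It was 17.7 and 18.9 in the prdm16 mutant libraries, against 16.9 and 18.4 in the prdm16 wt libraries. Read totals are unknown, so these raw values do not measure change between libraries. The 10 shared regions with the highest lowest rank all stood at the 99.85th percentile or above in every library. Another unplaced scaffold held 1 of them, at positions 5247 to 8283. On chromosomes they were chr11:15106727-15116075, chr24:12366650-12371435, chr17:39939036-39942962, chr24:12401785-12416885, chr7:53010681-53017567, chr7:53018087-53021241, chr16:25920784-25922461 and chr16:15653959-15669725. They were between 1678 and 15767 bp wide, all above the median width of shared regions. Chromosomes 7, 16 and 24 each held 2 of the 10, and the pair on chromosome 7 stood less than 1000 bp apart.

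The 5 weakest shared regions, those with the lowest highest rank, show the other edge. The weakest was chr8:34593799-34594989, with ranks of 1.098 and 0.116 in the prdm3 mutant libraries, against 11.4 and 19.2 in the prdm3 wt libraries. Its ranks were 1.49 and 22.3 in the prdm16 mutant libraries, against 1.016 and 17.2 in the prdm16 wt libraries. The others were chr3:5136885-5137685, chr8:34985235-34987684, chr8:34463600-34464219 and positions 101695 to 103423 of an unplaced scaffold. None of the 5 ranked above 28.6 in any library. The 3 on chromosome 8 lie within 1 Mb of each other and of the 26087 bp region named above.

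The summit, the point of a peak at which its value is highest, gives a finer position than the region. In the 3315 simple regions the 8 summits spanned a median of 179 bp, with few spans of intermediate size. In 1201 regions (36.2%) all 8 summits lay within 50 bp, and in 12 of these they fell on the same base. A span of 51 to 150 bp was rare, with 303 regions (9.14%). A span of over 150 and up to 300 bp was again common, with 1322 regions (39.9%). The regions with summits within 50 bp had a median middle rank of 83.4 and those with summits more than 150 bp apart 72.1, while their median widths were 885 and 886 bp. In all but 1 of the 3315 regions, the 8 peaks had at least 1 base in common, and the median common stretch was 522 bp.

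Taken 2 libraries at a time, 72.3% of the 92820 pairs of summits were within 50 bp. Pairs 51 to 150 bp apart made up 6.56%, and pairs over 150 and up to 300 bp apart 17.1%. The counts fell to a low at 100 to 109 bp and rose to a second maximum at 220 to 229 bp, with a smaller one at 430 to 439 bp. The distances between these maxima were filled as well, with no empty bin. The share of pairs within 50 bp ran from 65.3% (prdm16 mutant replicates 1 and 2) to 79.8% (prdm3 mutant replicates 1 and 2).

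**Figure D3:**
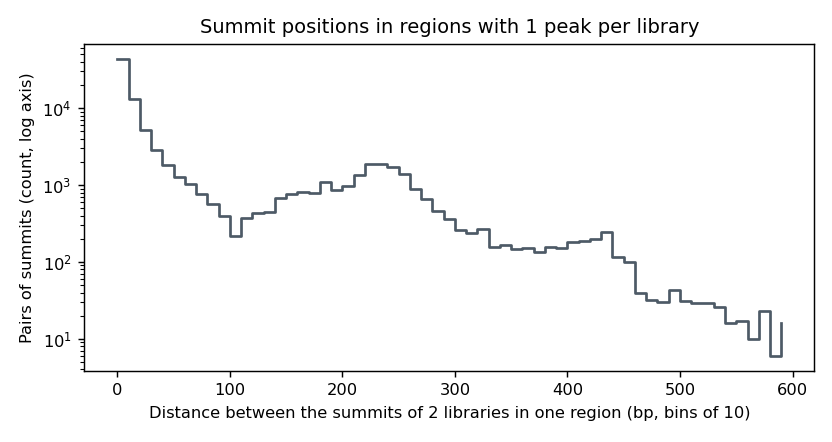
Distances in bp (bins of 10) between the summits of 2 libraries in the same region, for the 3315 regions with 1 peak per library, on a log axis of pair counts. The maximum at 0 is followed by a low at 100 to 109 bp, a second maximum at 220 to 229 bp and a smaller one at 430 to 439 bp.

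Along the chromosomes, shared regions were sparse but uneven. The 25 chromosomes held 4019 of them and unplaced scaffolds 152. The median gap between neighbours on a chromosome was 117494 bp (quartiles 14306 and 445741 bp), against 26966 bp for all merged regions. The largest gap was 6009180 bp. Gaps under 1000 bp made up 9.29% of the gaps between shared regions and 10.9% of those between all merged regions. For gaps under 50000 bp the shares were 37.2% and 64.8%. Thus the closest neighbours were about as frequent among the shared regions as among all merged regions, although the shared set is far sparser.

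**Figure D4:**
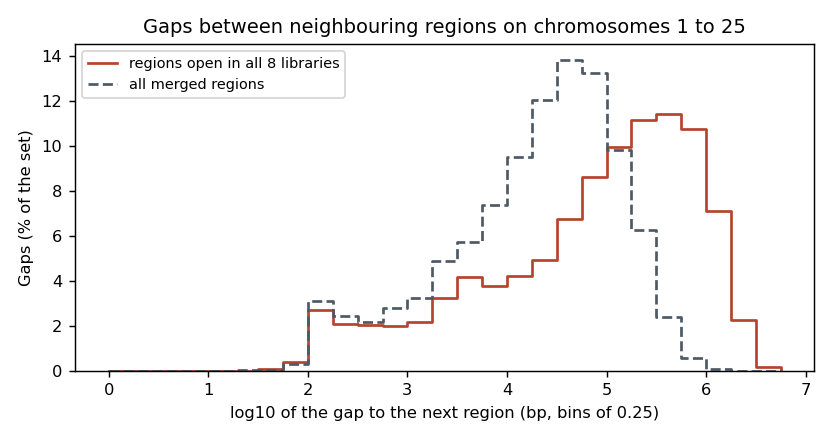
Gaps between neighbouring regions on chromosomes 1 to 25, as a percentage of all gaps of a set, by log10 of the gap in bp. Both sets show a similar small share of gaps around 100 to 1000 bp (2 to 3 on the axis), and the shared regions (solid) peak at wider gaps than all merged regions (dashed).

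The densest groups of shared regions, by the number within 50000 bp, were on chromosomes 17, 24 and 16. The group at chr17:46472568-46519441 held 16 shared regions with 160 peaks among 19 merged regions. The group at chr24:12459751-12509622 also held 16, with 173 peaks among 24 merged regions. The group at chr16:18206755-18254907 held 15, with 160 peaks among 18 merged regions. The ranks of the chromosome 17 group had medians of 84.9 and 93.4 in the prdm3 mutant libraries, against 96.5 and 97.2 in the prdm3 wt libraries. They were 95.6 and 96.0 in the prdm16 mutant libraries, against 86.1 and 96.1 in the prdm16 wt libraries. The chromosome 24 group stands within 100 kb of 2 of the 10 strongest regions.

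Rows of neighbours were then formed, with a rule chosen after the data had been seen, from shared regions with gaps of 5000 bp or less. Most shared regions on chromosomes (2982, or 74.2%) had no such neighbour. There were 37 rows of 6 or more, on 16 chromosomes, with 345 shared regions (8.58% of those on chromosomes) in 0.0918% of the length that peaks span. The number depends on the gap allowed, with 181 shared regions in such rows at gaps of up to 2000 bp and 515 at up to 10000 bp. The shorter limit breaks the rows with wide steps described next. Inside the rows 83.5% of the 413 merged regions were shared, against 19.0% over all chromosomes. The rows were built from shared regions, so a high share follows from that rule and is no finding. The rows differed in strength, with a median lowest rank from 3.25 (chr4:53486413-53523171, 13 regions) to 99.5 (chr10:16783791-16843031, 10 regions). In 8 rows it was 90 or more and in 7 it was under 30. The lowest rank can come from a single library. In those 7 rows the median middle rank ran from 34.8 (chr4:53486413-53523171) to 75.2 (chr4:67567236-67587399). A row with a low value is thus not always weak in most libraries.

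In 6 rows the distance from summit to summit was fairly even, with a coefficient of variation (SD over mean) of under 20%. The longest, at chr15:9773361-9856035, held 20 shared regions and no other merged region. Each of the 20 had exactly 1 peak per library and was 651 to 1737 bp wide. Its median step was 4236 bp, 15 of its 19 steps were between 4200 and 4300 bp, and the coefficient of variation of the steps was 6.43%. The shortest step was 4131 bp and the longest 5422.5 bp. The median ranks of its regions were 88.3 and 72.8 in the prdm3 mutant libraries, against 95.1 and 79.7 in the prdm3 wt libraries. They were 81.7 and 62.2 in the prdm16 mutant libraries, against 68.5 and 80.6 in the prdm16 wt libraries. The lowest rank of any of the 20 in any library was 11.2, and the highest 97.7.

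The other 5 even rows had much the same step. Chromosome 15 held 3 more, at chr15:9672119-9694657 (6 regions, median step 4227 bp), chr15:9739247-9766158 (7 regions, 4232 bp) and chr15:7217697-7252502 (9 regions, 4214 bp). The row at chr8:30835078-30857176 had 6 regions with a median step of 4258 bp and a coefficient of variation of 0.152%, the most even of all 37. The row at chr25:18819629-18847319 had 7 regions and a median step of 4282 bp, with a coefficient of variation of 14.4% and steps from 4105.5 to 5831 bp. The next most even row stood at 33.7%. Over all neighbouring shared regions, 65 steps fell between 4000 and 4249 bp, of which 34 were on chromosome 15, against 18 in the class before (3750 to 3999 bp) and 36 in the class after (4250 to 4499 bp), and 16 to 41 in the other classes between 1000 and 4999 bp. Without chromosome 15, the 31 steps left between 4000 and 4249 bp lie within the range of the other classes.

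The even rows on chromosomes 15, 8 and 25 were unequal in strength. The chromosome 8 row had low ranks, with medians of 17.8 and 40.5 in the prdm3 mutant libraries, against 39.04 and 37.1 in the prdm3 wt libraries. They were 63.2 and 28.03 in the prdm16 mutant libraries, against 31.7 and 48.6 in the prdm16 wt libraries. The chromosome 25 row had high ranks, with medians of 94.6 and 91.9 in prdm3 mutants, against 97.04 and 92.4 in prdm3 wt, and 95.4 and 84.2 in prdm16 mutants, against 93.7 and 90.1 in prdm16 wt. What lies in these rows was not analysed here.

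The chromosomes differed in density by up to 2.18-fold. Density is the number of shared regions per Mb of the length up to the last peak of any library, and over the 25 chromosomes it was 2.99 per Mb. It was highest on chromosome 25 with 4.03 per Mb (95% exact Poisson interval 3.41 to 4.72). Chromosome 3 followed with 3.83 per Mb (240 regions, 3.36 to 4.35) and chromosome 8 with 3.78 per Mb (205 regions, 3.28 to 4.33). It was lowest on chromosome 9 with 1.84 per Mb (104 regions, 1.51 to 2.23). Chromosome 14 had 1.94 per Mb (1.58 to 2.35) and chromosome 1 had 2.48 per Mb (148 regions, 2.10 to 2.92). The intervals of the 3 highest do not reach those of the 3 lowest. They cover counting error only, and neighbouring regions are not independent. The 3 highest and 3 lowest were picked by these same counts, so their separation is a description and no test.

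All merged regions varied less between chromosomes, by 1.53-fold. As a share of the chromosome's merged regions, the shared regions were 13.9% on chromosome 14 and 14.7% on chromosome 9, against 19.0% over all chromosomes. The share was highest on chromosome 24 with 23.5% (exact binomial interval 20.3 to 27.0), chromosome 16 with 22.9% and chromosome 8 with 22.2%. Chromosomes 9 and 14 were thus low in both measures. Part of the high values lies in the rows described above, which held 34 shared regions on chromosome 24 and 34 of the 196 on chromosome 16. Chromosomes 3, 9 and 14 had no row of 6 or more. Without the rows, chromosome 3 had the highest density with 3.83 per Mb, followed by chromosome 25 with 3.52 and chromosome 8 with 3.41.

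**Figure D5:**
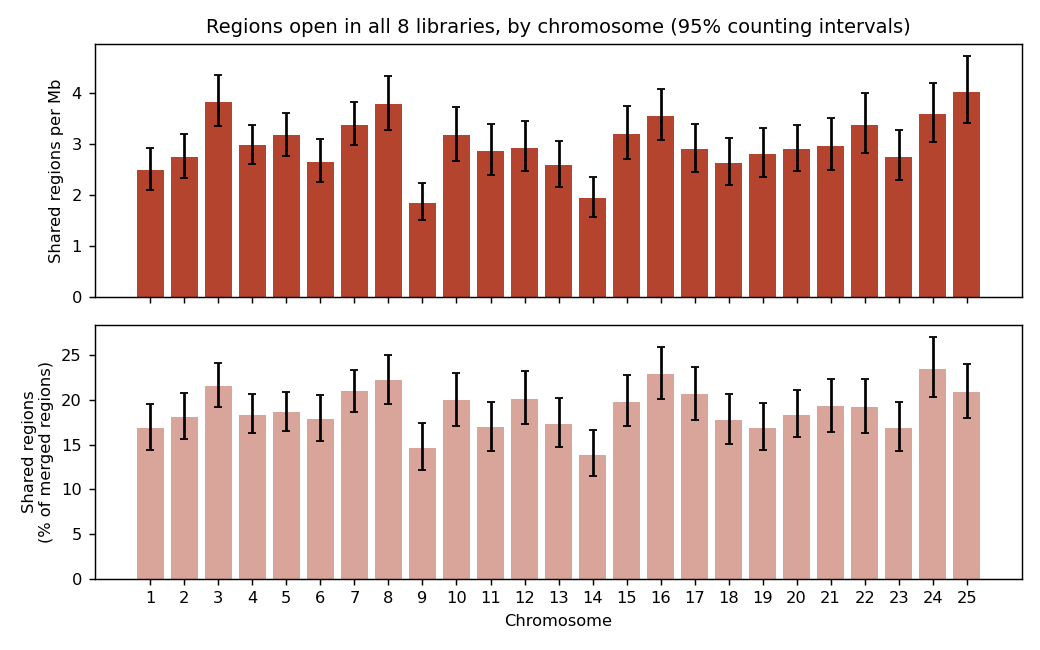
Top, shared regions per Mb of each chromosome, with 95% exact Poisson intervals; bottom, shared regions as a percentage of the chromosome's merged regions, with 95% exact binomial intervals. Chromosomes 9 and 14 are lowest in both panels, chromosome 25 is highest in the top panel with 4.03 per Mb and chromosome 24 in the bottom panel with 23.5%.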

How the data were processed

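ATAC-seq peaks of 8 libraries were used. Per the labels, nuclei of sorted cells were tagmented and libraries amplified by PCR. Per the submitters' processing notes the build was danRer11. Those notes list Genrich among the tools, beside cutadapt, bedtools and Bowtie2 2.4.4, and give no step for any of them. The authors deposited a peak list per library, in which every peak has a signal (area, 200 or more), a −log10 p and a summit position, and no q-value. Those values ranked and described peaks within a library. Read depth is not given in the sources used here, so no interval for it can be stated.

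Peaks were merged and ranked with Python 3.11.15, numpy 2.4.6 and pandas 2.3.3, and intervals used scipy 1.17.1. The code was tested on simulated peaks. Mutant and wild type libraries were compared by two-sided exact permutation tests over 3 measures and 3 contrasts. Coordinates are 1-based. The regions and tests were chosen with earlier results of these data known. Named are the 10 strongest, 5 widest and 5 weakest regions, the 3 densest groups within 50000 bp, and the 3 chromosomes highest and lowest in density; others were chosen after their values were seen. Planned comparisons of base composition, gene starts and RNA of nearby genes were not run, because no genome or annotation of danRer11 was at hand, and chromosome length was replaced by the length up to the last peak. Alternatives were another overlap rule, a −log10 p of 3, equal list lengths, joining across gaps, and leaving out libraries. There were 0 columns of per-sample values left unmapped in the files used. The same-numbered libraries of a set deviated together in rank from their group means (correlation 0.38 in the prdm3 and 0.51 in the prdm16 set), and replicate 1 also held more peaks than replicate 2 in each group.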

Additional observations from a re-analysis of the deposited data

How the results depend on the processing

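The number of shared regions stayed within 1.5-fold of 4171 in all but one setting, with 3102 to 4844 by another overlap rule, a −log10 p of 3 or more, equal list lengths, chromosomes alone and joining across 200 bp, and 4200 to 4677 with a library left out. It was 8255 for the 5 libraries with the most peaks, an alternative chosen after seeing the data, with a median width of 804 bp, a median gap of 68198 bp and a median lowest rank of 47.8. Where a region had to be 100 bp or more under a peak of every library, the median width was 527 bp and the median gap 72833 bp, which follows from how that set is built. With the 6590 strongest peaks of each library the median gap was 190958 bp. Peaks joined across 200 bp gave a median width of 988 bp and a median gap of 129351 bp. Leaving out a library gave median widths of 926 to 963 bp, median gaps of 107727 to 116574 bp and median lowest ranks of 47.3 to 50.1. The highest over lowest chromosome was 1.69-fold for the share of merged regions. Rows of 6 or more held 181 shared regions with gaps of up to 2000 bp and 515 with gaps of up to 10000 bp. For summits within 50 bp, leaving out a library gave 1227 to 1360 regions.

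For signal share and width, no exact permutation p between mutants and wild types passed 0.05 in any setting, and the smallest was 0.229. Most settings could not have passed. Within a set, 2 against 2 libraries allow no p below 0.333, and a library less allows no lower one. Only tests that permuted libraries freely over both sets could pass 0.05. With equal list lengths the differences in the prdm3 set, the prdm16 set and both sets were -1.12, 0.296 and -0.414 percentage points in peak share, -1.95, 0.687 and -0.633 in signal share, and 192.5, -71.0 and 60.8 bp in width. The rule leaves peak share little room to differ there. Leaving out a library gave differences in peak share of -27.5 to -5.90 percentage points in the prdm3 set, -11.3 to 23.7 in the prdm16 set and -14.8 to 1.66 in both sets. In the prdm16 set the sign turned without mutant replicate 2 (-7.73) or wild type replicate 1 (-11.3), and in both sets without prdm3 mutant replicate 1 (0.546) or prdm16 wild type replicate 2 (1.66). For signal share the ranges were -25.2 to -10.7, -6.00 to 18.3 and -12.3 to -0.439, and the prdm16 sign turned without mutant replicate 2 (-0.763) or wild type replicate 1 (-6.00). For median width they were 91.0 to 229 bp, -143 to 19.5 bp and 12.5 to 95.8 bp, and the prdm16 sign turned without wild type replicate 1 (19.5). The cause was not tested. The replicate block pairs same-numbered libraries of a set. With it, the differences over both sets were -5.23 percentage points in peak share, -5.91 in signal share and 49.3 bp in width. The exact sign-flip permutation p was 0.5 for signal share and 0.75 for width. Peak share restates list length and is given as a description. The smallest p this design allows is 0.125 (0.5 within a set), so the block could give no call.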

Other observations

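Shared regions were placed unevenly along chromosomes. When each chromosome was divided into 10 equal parts up to its last peak, the first part held 532 and the last 556 of the 4019 shared regions on chromosomes, against 325 to 432 in the parts between. As a share of the merged regions of the same part, this was 22.2% at the start and 22.6% at the end, and 14.4% at the lowest, in the fifth part.

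The second part of chromosome 4, past the middle of its spanned length, held 120 shared regions with a median lowest rank of 26.2 and a median width of 1377 bp, against 112 regions with 59.3 and 1001 bp in the part before it. On chromosome 8 the 120 shared regions past the middle had a median lowest rank of 42.5 and a median width of 1299 bp, against 85 regions with 53.6 and 918 bp before it. Such differences were not particular to chromosome 8. On chromosome 15 the median lowest rank was 61.3 before the middle and 42.2 past it. On chromosome 24 it was 55.9 and 42.4, with median widths of 1280.5 and 884 bp. Chromosome 1 went the other way in rank, with 43.3 and 53.2.

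On unplaced scaffolds 152 of 500 merged regions (30.4%) were shared, against 19.0% on the 25 chromosomes. They lay on 96 scaffolds and had a median lowest rank of 60.3 and a median width of 1301 bp, against 48.7 and 960 bp on chromosomes. These values were looked up after the data had been seen and no test was run on them.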
